A study of Mus musculus with 12 samples.

Results

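The genes described here encode proteins of the endodermal basement membrane and of the endocytic machinery at the endoderm surface. They were chosen by name, as the rows of the deposited gene table with the symbols Lama1, Lamb1, Lamc1, Col4a1, Col4a2, Sparc, Dab2, Cubn and Lrp2. Earlier results of these data were known when they were chosen, so counts of the 9 beside shares of all genes are descriptions only. All 9 were listed among 20529 genes, and all 9 passed the filter on low counts that left 20486 genes for testing. The cells were mouse embryonic stem cells of the strain 129S6/SvEvTac, grown on gelatin in serum and LIF. Per the growth protocol, all groups carried the reporter GFP_5xT71BS and a stable FLAG-Cas9 construct with a blasticidin marker, so the controls carried both as well. Total RNA was sequenced from 12 libraries in 4 groups of 3: Cas9 Ctrl and Cas9 Trim71-/-, which overexpressed Cas9, and Tnrc6a Ctrl and Tnrc6a Trim71-/-, which overexpressed Tnrc6a. Trim71 is a repressor of mRNAs that binds RNA through its NHL domain. Tnrc6a, also named GW182, is the protein through which Argonaute brings deadenylases to the targets of microRNAs. Libraries of a group came from triplicate wells, per the series' design text. The labels do not say whether a group is 1 clone, so genotype and cell line cannot be told apart, and the p-values measure only the spread between the libraries of a group.

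Groups were taken from the titles and from the overexpression tag. For 9 of the 12 libraries, another free-text line on the input RNA names different cells (HA-AVI-Tnrc6a, Ago2-/- or Upf1-/-), and every result below rests on the titles. Total counts were between 20758151 and 31552915 a library. Trim71 RNA itself was at 290 to 317 CPM (counts scaled to the same library size, with edgeR's TMM factors) in Cas9 Ctrl and at 264 to 291 in Cas9 Trim71-/-, and these libraries overlapped. It was at 254 to 277 CPM in Tnrc6a Ctrl and at 233 to 251 in Tnrc6a Trim71-/-, so the level of the targeted RNA does not check the genotype. Tnrc6a was at 131 to 152 CPM in the Cas9 libraries and at 3200 to 3700 in the Tnrc6a libraries. The stem cell markers Pou5f1 and Nanog were present in every library, Pou5f1 between 673 and 1660 CPM and Nanog between 487 and 806.

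As background, the basement membrane of the early embryo is laid down largely by primitive endoderm and its derivative, the parietal endoderm. Its laminin is a trimer of the chains alpha 1, beta 1 and gamma 1 (Lama1, Lamb1, Lamc1), its collagen IV a trimer of the chains alpha 1 and alpha 2 (Col4a1, Col4a2), and SPARC is a secreted protein that binds collagen. Visceral endoderm takes up maternal proteins through cubilin (Cubn) and megalin (Lrp2), giant receptors that cluster in clathrin-coated pits with the help of the adaptor Dab2.

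All 9 genes were lower in the libraries labelled Trim71-/- than in Ctrl, with either overexpression. In the Cas9 cells, 9 of 9 passed the test downward (edgeR's quasi-likelihood test, Benjamini-Hochberg adjusted p under 0.05, here "called"), where 19.1% of all tested genes were called lower and 17.1% higher. In the Tnrc6a cells it was again 9 of 9 downward, against 19.0% of all genes lower and 20.0% higher. The median log2 fold change of the 9 was -1.73 in Cas9 cells and -2.14 in Tnrc6a cells, beside -0.01 and 0.0 over all tested genes. At least 2-fold differences were found for 7 and 8 of the genes. Cubn fell most in both cell types, and Lamc1 fell least. In bulk RNA, fewer cells that express a gene and less RNA per cell cannot be told apart.

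Tnrc6a overexpression went with higher levels of 8 of the 9 genes in Ctrl cells and with a lower level of Lamc1. In this comparison 30.4% of all tested genes were called higher and 33.1% lower, and the median of the 9 was 1.08 beside -0.02 over all genes. In the Trim71-/- cells, 5 genes were called higher with Tnrc6a (Lamb1, Col4a1, Col4a2, Sparc and Dab2), Lamc1 was called lower, and Lama1, Cubn and Lrp2 were not called. There 32.0% of all genes were called higher and 30.9% lower, and the median of the 9 was 0.23 beside 0.02. The 4 comparisons share their libraries in pairs, so each gene's values are given side by side and not as separate evidence.

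**Figure D1:**
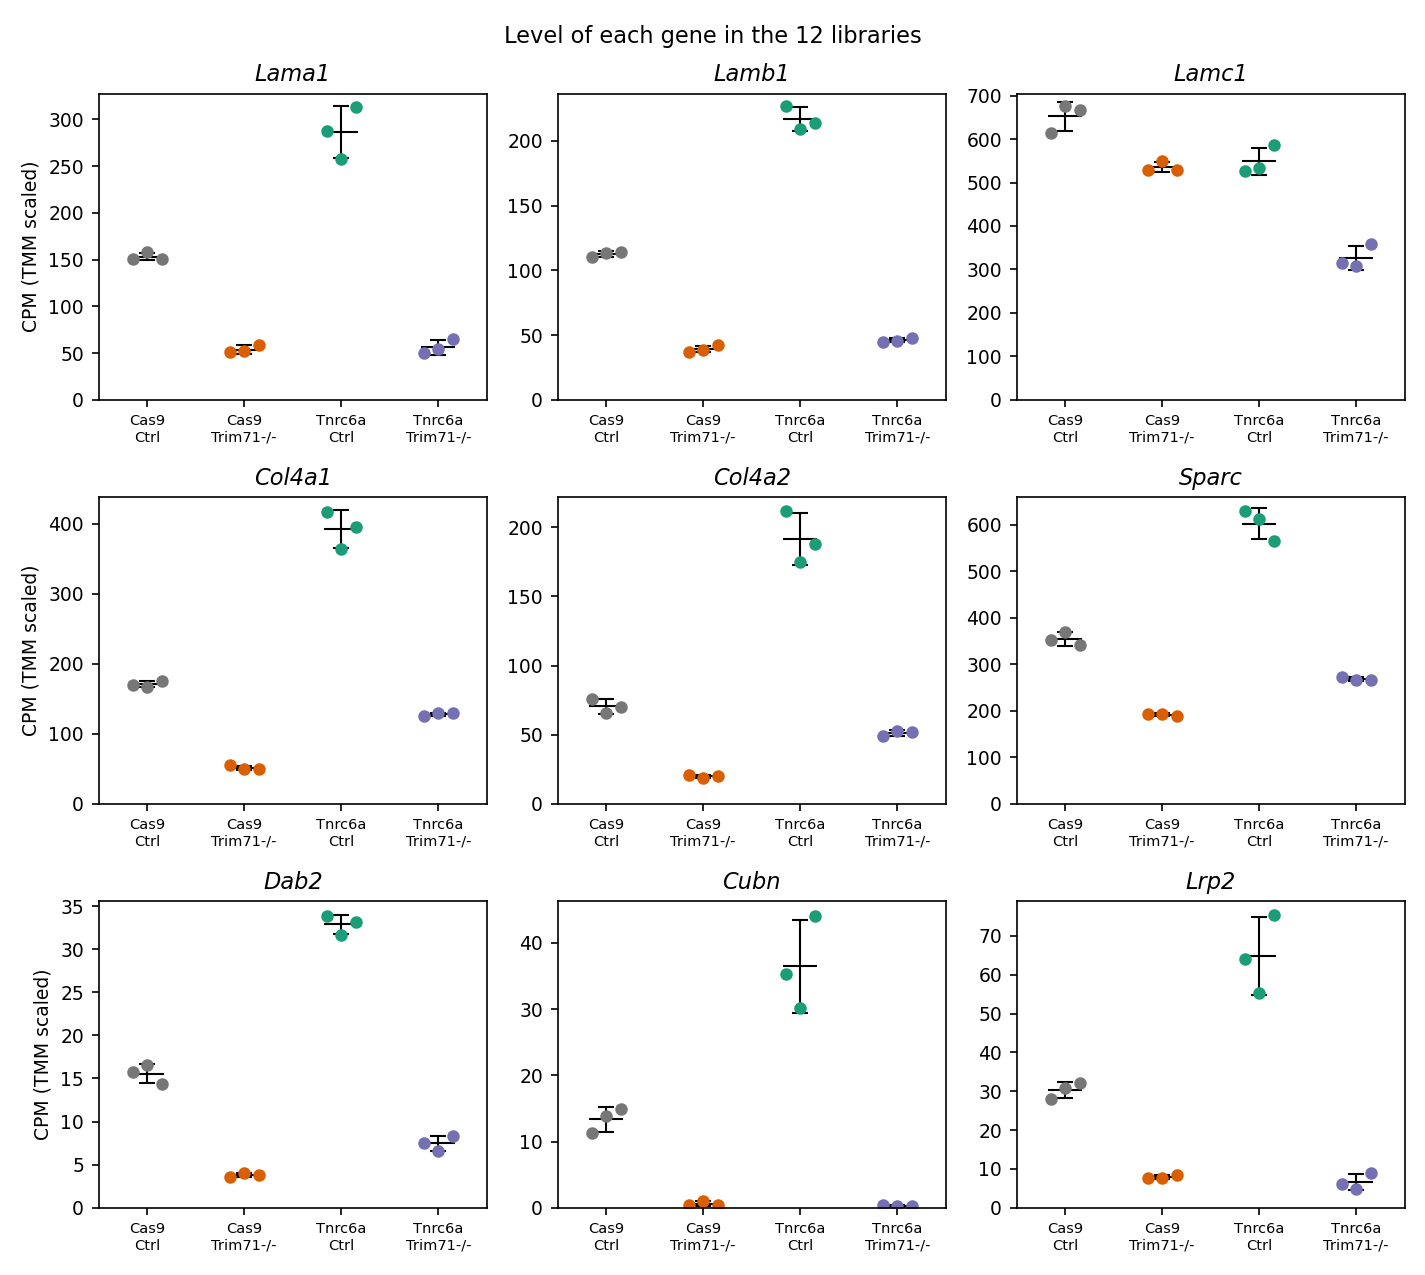
Each panel plots 1 gene, with the level in CPM (TMM scaled) on the vertical axis from 0 and the 4 groups on the horizontal axis. Points are libraries, and bars are the mean and SD of 3. In every panel but that of Lamc1 the Tnrc6a Ctrl libraries are the highest, and in all 9 panels each Trim71-/- group lies below its own Ctrl group.

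Of the laminin chains, Lama1 and Lamb1 fell together and Lamc1 fell less. Lama1 (ENSMUSG00000032796, chr17:67697259-67822647, plus strand of GRCm38), the alpha 1 chain that anchors the trimer to cell-surface receptors, was at 151, 158 and 151 CPM in Cas9 Ctrl and at 50.6, 51.7 and 58.9 in Cas9 Trim71-/-. Tnrc6a Ctrl libraries had 288, 258 and 314 CPM of Lama1, and Tnrc6a Trim71-/- libraries had 49.6, 53.9 and 65.2. The groups did not overlap within either cell type, while the 6 Trim71-/- libraries overlapped with each other. Lama1 fell by 1.52 on the log2 scale (SE 0.11, 2.86-fold, edgeR adjusted p = 4.36e-06) in Cas9 cells and by 2.35 (SE 0.11, 5.10-fold, edgeR adjusted p = 1.2e-07) in Tnrc6a cells. With Tnrc6a it was 1.87-fold higher in Ctrl cells (log2 0.90, edgeR adjusted p = 3.81e-05). In Trim71-/- cells the Tnrc6a difference was 0.07 on the log2 scale, with a 95% interval from -0.20 to 0.33.

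Lamb1 (ENSMUSG00000002900, chr12:31265234-31329644, plus strand), the beta 1 chain, moved almost as Lama1 did. It was at 110, 113 and 114 CPM in Cas9 Ctrl and at 37.0, 38.8 and 42.0 in Cas9 Trim71-/-. With Tnrc6a its level was 227, 209 and 214 CPM in Ctrl and 44.7, 45.3 and 48.0 in Trim71-/-. No groups overlapped, and the 2 Trim71-/- groups lay far closer to each other than the 2 Ctrl groups did. The log2 fold change in Trim71-/- was -1.52 (SE 0.05, edgeR adjusted p = 2.68e-27) in Cas9 cells and -2.24 (SE 0.05, edgeR adjusted p = 2.2e-34) in Tnrc6a cells. Tnrc6a went with a 1.93-fold higher level in Ctrl cells and a 1.17-fold higher one in Trim71-/- cells (edgeR adjusted p = 1.82e-22 and 0.000129).

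Lamc1 (ENSMUSG00000026478, chr1:153218922-153332786, minus strand), the gamma 1 chain shared by most laminins, was the most abundant of the 3 and fell least of them in Trim71-/-. It was at 615, 676 and 667 CPM in Cas9 Ctrl and at 528, 550 and 529 in Cas9 Trim71-/-. Levels in Tnrc6a Ctrl were 528, 534 and 585 CPM, and in Tnrc6a Trim71-/- 314, 307 and 359. Both Trim71-/- groups lay below their controls without overlap, but the drop was 1.22-fold in Cas9 cells and 1.68-fold in Tnrc6a cells (log2 -0.28 and -0.75, edgeR adjusted p = 0.000119 and 4.99e-11). Unlike the other 8 genes, Lamc1 was lower with Tnrc6a in both genotypes, by a log2 difference of -0.25 (edgeR adjusted p = 0.000202) in Ctrl and of -0.71 (edgeR adjusted p = 4.52e-11) in Trim71-/- cells.

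The unequal drop of the chains shows in their ratios within a library, computed from the deposited RPKM, which are counts scaled for gene length and library size. Lama1 stood at 0.201 ± 0.00837 of Lamc1 in Cas9 Ctrl and at 0.0858 ± 0.00812 in Cas9 Trim71-/- (SD, n = 3). In Tnrc6a cells the ratio was 0.446 ± 0.029 in Ctrl and 0.147 ± 0.0104 in Trim71-/- (SD, n = 3). Lamb1 over Lamc1 went the same way, from 0.144 to 0.0611 and from 0.330 to 0.118. The ratio of Lama1 to Lamb1 differed little, with means of 1.40, 1.40, 1.35 and 1.25 in the order Cas9 Ctrl, Cas9 Trim71-/-, Tnrc6a Ctrl and Tnrc6a Trim71-/-, and its libraries ranged from 1.14 to 1.5. Per length, Lamc1 mRNA exceeded both Lama1 and Lamb1 mRNA in every library.

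**Figure D2:**
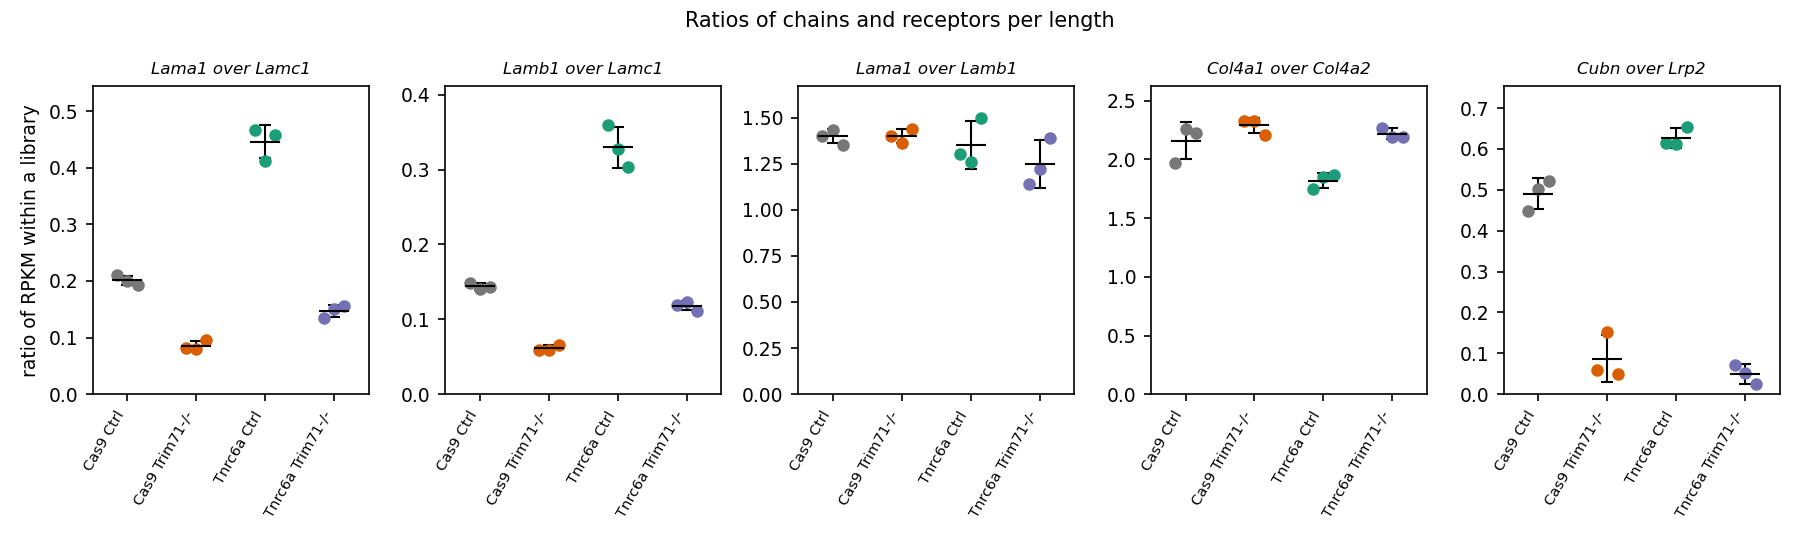
Each panel plots a ratio of RPKM within a library on the vertical axis from 0, with the 4 groups on the horizontal axis. Points are libraries, and bars are the mean and SD of 3. The ratios of Lama1 and Lamb1 to Lamc1 and of Cubn to Lrp2 are lower in both Trim71-/- groups, while Lama1 over Lamb1 lies between 1.14 and 1.5 throughout.

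The other laminin chains had no common direction. Of 8 others tested, 2 were called higher and 2 lower in Trim71-/- in Cas9 cells, and likewise 2 and 2 in Tnrc6a cells, where 17.1% to 20.0% of all genes were called in a direction. Lama3, an alpha chain of epithelial laminin with a mean of 2.99 CPM, fell in both cell types (log2 -1.22, edgeR adjusted p = 2.62e-07, and -0.48, edgeR adjusted p = 0.026). Lama5, the most abundant other chain at 190 ± 4.12 CPM in Cas9 Ctrl (SD, n = 3), had log2 fold changes of -0.23 and -0.11 that were not called (edgeR adjusted p = 0.0521 and 0.338). Lamb3, at 2.05 ± 0.745 CPM in Cas9 Ctrl (SD, n = 3), fell by 0.80 in Cas9 cells (edgeR adjusted p = 0.00479) and had a log2 fold change of -0.22 in Tnrc6a cells that was not called. With Tnrc6a, 5 of the 8 were called higher and 2 lower in Ctrl cells, against 30.4% and 33.1% of all tested genes.

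Collagen IV chains fell as a pair. Col4a1 (ENSMUSG00000031502, chr8:11198423-11312826, minus strand) was at 169, 167 and 176 CPM in Cas9 Ctrl and at 54.9, 49.1 and 50.2 in Cas9 Trim71-/-. It was at 417, 364 and 396 CPM in Tnrc6a Ctrl and at 126, 130 and 129 in Tnrc6a Trim71-/-. Its 4 groups did not overlap, and Tnrc6a Ctrl was highest. Col4a1 fell by 1.73 on the log2 scale in Cas9 cells (SE 0.05, 3.32-fold, edgeR adjusted p = 9.75e-30) and by 1.61 in Tnrc6a cells (SE 0.04, 3.06-fold, edgeR adjusted p = 3.85e-30).

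Col4a2 (ENSMUSG00000031503, chr8:11312805-11449287, plus strand), the alpha 2 chain, lies head to head with Col4a1, and their annotated exons share 22 bases on opposite strands. It was at 75.9, 65.5 and 69.9 CPM in Cas9 Ctrl and at 20.9, 18.7 and 20.1 in Cas9 Trim71-/-. The Tnrc6a Ctrl libraries were at 212, 175 and 188 CPM and the Tnrc6a Trim71-/- libraries at 49.1, 52.5 and 52.2. Again no groups overlapped. The log2 fold changes in Trim71-/- were -1.83 (SE 0.07, edgeR adjusted p = 4.32e-18) and -1.90 (SE 0.06, edgeR adjusted p = 3.34e-20). With Tnrc6a, both chains rose to a like extent in both genotypes: Col4a1 by 2.30-fold in Ctrl and 2.49-fold in Trim71-/- cells, and Col4a2 by 2.71-fold and 2.57-fold (edgeR adjusted p from 2.29e-26 to 1.11e-15).

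Per length, Col4a1 exceeded Col4a2 in every library. The ratio was 2.16 ± 0.159 in Cas9 Ctrl, 2.29 ± 0.0671 in Cas9 Trim71-/- and 2.22 ± 0.0454 in Tnrc6a Trim71-/- (SD, n = 3). In Tnrc6a Ctrl it was 1.82 ± 0.0639 (SD, n = 3), and its libraries (1.75 to 1.87) lay below all others (1.97 to 2.33). Of the other collagen IV genes, Col4a4 and Col4a5 were tested and neither was called in Trim71-/-, and each was called higher with Tnrc6a in both genotypes. Their highest group means were 0.379 and 1.46 CPM.

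Both genes lie on chromosome 8, where the genes as a group were higher in Trim71-/-. The 664 genes of chromosome 8 that reached a mean of 5 CPM had a median log2 fold change in Trim71-/- of 0.49 in Cas9 cells and 0.52 in Tnrc6a cells, beside -0.01 and 0.0 for genes elsewhere. Col4a1 lay 2.22 and 2.13 below that median, and Col4a2 lay 2.32 and 2.42 below it. In Cas9 cells Col4a2 was the lowest of the 664 and Col4a1 the next. In Tnrc6a cells 1 of the 664 lay below Col4a2 and 2 lay below Col4a1, Col4a2 being 1 of them. With chromosome 8 genes scaled among themselves, the log2 fold changes were -2.20 for Col4a1 and -2.29 for Col4a2 in Cas9 cells, and -2.11 and -2.40 in Tnrc6a cells.

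**Figure D3:**
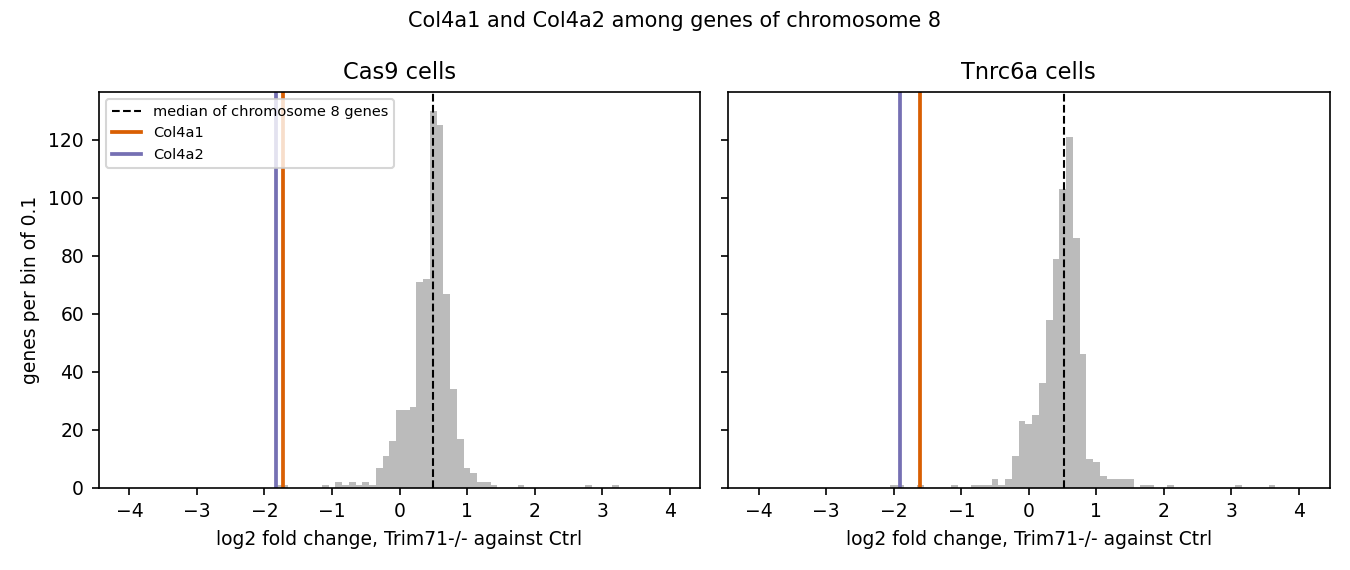
Histograms show the log2 fold change of Trim71-/- against Ctrl (horizontal axis) for chromosome 8 genes of at least 5 CPM in bins of 0.1, in Cas9 cells (left) and Tnrc6a cells (right), with the number of genes on the vertical axis. The dashed line is their median (0.49 and 0.52), and the coloured lines mark Col4a1 (-1.73 and -1.61) and Col4a2 (-1.83 and -1.90), far to its left.

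Enzymes and chaperones that fold collagen moved in part with the chains. Serpinh1 (HSP47), the collagen-specific chaperone of the endoplasmic reticulum, was at 74.9, 73.1 and 71.4 CPM in Cas9 Ctrl and at 27.6, 24.9 and 25.3 in Cas9 Trim71-/-. It was at 195, 196 and 179 CPM in Tnrc6a Ctrl and at 78.5, 76.5 and 74.6 in Tnrc6a Trim71-/-. Its log2 fold change in Trim71-/- was -1.49 and -1.31, and with Tnrc6a it was 1.38 in Ctrl and 1.56 in Trim71-/- cells, all 4 called. P4ha2 and P4ha1, catalytic subunits of the collagen prolyl hydroxylase, fell in Trim71-/- (P4ha2 by 1.43 and 1.19, P4ha1 by 0.81 and 0.81) and rose with Tnrc6a. Over the 20 genes of this list, 7 were called higher and 10 lower in Trim71-/- in Cas9 cells, and 3 higher and 9 lower in Tnrc6a cells, with a median of -0.14 in both. Of all tested genes, 17.1% were called higher and 19.1% lower in Cas9 cells, and 20.0% and 19.0% in Tnrc6a cells. Serpinh1, P4ha2 and P4ha1 are among those called lower, and none of those called higher is named here.

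MicroRNA target words were looked up in the collagen genes because Tnrc6a acts in microRNA silencing and because miR-29 is known to target collagen mRNAs. The mature sequences are from RefSeq (GRCm38.p6), with the seed, bases 2 to 8, in capitals:
mmu-miR-29a-3p: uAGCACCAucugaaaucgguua
mmu-miR-29b-3p: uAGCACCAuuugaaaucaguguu
mmu-miR-29c-3p: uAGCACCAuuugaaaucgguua
All 3 share a seed, whose match in mRNA is TGGTGCT. In the longest annotated 3' UTR of each gene (GENCODE M21, transcript strand only), 16.3% of 14960 genes held the match at least once and 2.68% at least 2 times. Col4a1 and Col4a2 each held it 2 times, Lamc1 and Dab2 once, and the other 5 genes did not hold it. These UTRs differ in length, and a short one has less room for a match. Those of Lama1, Lamb1 and Cubn have 198, 151 and 390 bases, beside a median of 1272 over the 14960 genes. Sparc and Lrp2 have 1085 and 1305, Col4a1 and Col4a2 1708 and 971, and Lamc1 and Dab2 2551 and 1936. The matches in the collagen genes, in capitals, are:
Col4a1 UTR bases 81 to 102: atgcacaccagcgcTGGTGCTg
Col4a1 UTR bases 357 to 378: ccaccgtcacaacaTGGTGCTa
Col4a2 UTR bases 29 to 50: tgggaaggccacgtTGGTGCTt
Col4a2 UTR bases 200 to 221: caccacacccagctTGGTGCTt
The match of the miR-290 and miR-302 seed, AGCACTT, was found once each in Col4a2 and Lrp2 (17.4% of all genes), and that of let-7, CTACCTC, in none of the 9 (11.7%). These are matches of letters, and a site's activity was not measured here.

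Sparc (ENSMUSG00000018593, chr11:55394500-55423183, minus strand), the collagen-binding glycoprotein secreted in quantity by parietal endoderm, was at 352, 371 and 342 CPM in Cas9 Ctrl and at 193, 194 and 189 in Cas9 Trim71-/-. With Tnrc6a it was at 631, 612 and 565 CPM in Ctrl and at 274, 267 and 267 in Trim71-/-. The 4 groups did not overlap, and the replicates were tight. Sparc fell by 0.89 on the log2 scale in Cas9 cells (SE 0.04, 1.85-fold, edgeR adjusted p = 2.89e-22) and by 1.16 in Tnrc6a cells (SE 0.04, 2.24-fold, edgeR adjusted p = 4.33e-27). Tnrc6a went with a 1.70-fold higher level in Ctrl and a 1.40-fold higher one in Trim71-/- cells. Of 5 relatives tested, 4 fell in Trim71-/- in Cas9 cells and 2 in Tnrc6a cells, and none rose. Of all tested genes, 19.1% and 19.0% were called lower there. Smoc1 (log2 -0.65 and -0.51, mean 4.99 CPM) and Spock1 (-0.71 and -0.68, mean 1.45 CPM) fell in both. Fstl1, at a mean of 53.1 CPM, fell in Cas9 cells (-0.5) and was not called in Tnrc6a cells (0.07). With Tnrc6a, Fstl1 was lower in Ctrl (-1.42) and Trim71-/- cells (-0.84), where Sparc was higher.

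The remaining basement membrane components were mixed. Of 17 tested (nidogens, perlecan, agrin and others), none was called higher and 8 lower in Trim71-/- in Cas9 cells, and 1 was higher and 5 lower in Tnrc6a cells, with medians of -0.40 and -0.35. Among all tested genes, 17.1% were called higher and 19.1% lower in Cas9 cells, and 20.0% and 19.0% in Tnrc6a cells. Nid1, the nidogen that links laminin to collagen IV, was at 229 to 248 CPM in Cas9 Ctrl and at 190 to 219 in Cas9 Trim71-/- (log2 -0.23, edgeR adjusted p = 6.86e-05), and its log2 fold change in Tnrc6a cells was 0.0 (edgeR adjusted p = 0.973). Hspg2 (perlecan) varied widely between replicates, with 281 ± 52.9 CPM in Cas9 Trim71-/- (SD, n = 3), and was not called in any of the 5 comparisons. Col18a1 fell by 0.45 and 0.41 in Trim71-/- but was also lower with Tnrc6a (log2 -1.16 in Ctrl cells), the opposite direction to Col4a1. With Tnrc6a, Tinagl1 went from 4.10 ± 0.632 to 41.6 ± 1.5 CPM in Ctrl cells (SD, n = 3).

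Receptors for the basement membrane showed no common direction. Of 13 tested, 2 were called higher and 3 lower in Trim71-/- in Cas9 cells, against 17.1% and 19.1% of all tested genes. In Tnrc6a cells it was 4 and 4, against 20.0% and 19.0%. Itgb1, the integrin beta 1 chain that pairs with most laminin-binding alpha chains, rose by 0.72 and 0.73 on the log2 scale, and it lies on chromosome 8, whose medians were 0.49 and 0.52. Dag1 (dystroglycan), a laminin receptor, fell by 0.40 and 0.39.

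The endocytic genes were far less abundant than the matrix genes and included the steepest drops. Dab2 (ENSMUSG00000022150, chr15:6299788-6440712, plus strand), the clathrin adaptor, was at 15.7, 16.6 and 14.4 CPM in Cas9 Ctrl and at 3.52, 4.01 and 3.78 in Cas9 Trim71-/-. It was at 33.9, 31.7 and 33.1 CPM in Tnrc6a Ctrl and at 7.5, 6.63 and 8.36 in Tnrc6a Trim71-/-. The groups did not overlap. Dab2 fell by 2.05 in Cas9 cells (SE 0.11, 4.13-fold, edgeR adjusted p = 5.01e-20) and by 2.14 in Tnrc6a cells (SE 0.09, 4.39-fold, edgeR adjusted p = 4.06e-24). Tnrc6a went with a 2.12-fold higher level in Ctrl and a 1.99-fold higher one in Trim71-/- cells (edgeR adjusted p = 7.58e-16 and 6.54e-10).

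Cubn (ENSMUSG00000026726, chr2:13276338-13491813, minus strand), the receptor for intrinsic factor and other ligands, was at 11.3, 13.9 and 14.9 CPM in Cas9 Ctrl and at 0.403, 1.03 and 0.369 in Cas9 Trim71-/-, the latter from 12, 25 and 8 counts. The Tnrc6a Ctrl libraries had 35.2, 30.2 and 44.1 CPM, and the Tnrc6a Trim71-/- libraries 0.397, 0.221 and 0.197, from 11, 6 and 5 counts. Every Trim71-/- library lay far below every Ctrl library, and the 2 Trim71-/- groups overlapped. Cubn fell by 4.48 in Cas9 cells (SE 0.30, 22.2-fold, edgeR adjusted p = 1.19e-07). Without Cas9 Trim71-/- replicate 2, which held 25 of that group's 45 counts, the log2 fold change was -5.09. In Tnrc6a cells it fell by 7.03 (SE 0.30, 131-fold, edgeR adjusted p = 7.52e-10), which ranked 3 among the 20486 genes by size. Tnrc6a went with a 2.74-fold higher level in Ctrl cells (edgeR adjusted p = 4.1e-06). In Trim71-/- cells the difference was -1.10, with a 95% interval from -2.60 to 0.39, and without Cas9 Trim71-/- replicate 2 it was -0.49. It was called in DESeq2 (-1.12, adjusted p = 0.027) and with the replicate number as a block in edgeR (-1.12, adjusted p = 0.0452). These values rest on 5 to 25 counts a library. Each drop in Trim71-/- had an SE of 0.30, yet the difference between the 2 drops, given below, had an SE of 0.70. The SEs and intervals of the drops are therefore likely too narrow.

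Lrp2 (ENSMUSG00000027070, chr2:69424340-69586065, minus strand), the megalin receptor that carries cubilin into the cell, was at 28.1, 30.9 and 32.0 CPM in Cas9 Ctrl and at 7.75, 7.57 and 8.53 in Cas9 Trim71-/-. With Tnrc6a it was at 64.2, 55.2 and 75.3 CPM in Ctrl and at 6.20, 4.71 and 8.95 in Trim71-/-. Ctrl and Trim71-/- did not overlap, the 2 Trim71-/- groups did, and replicates spread more in Tnrc6a cells. Lrp2 fell by 1.93 in Cas9 cells (SE 0.20, 3.82-fold, edgeR adjusted p = 4.94e-05) and by 3.30 in Tnrc6a cells (SE 0.19, 9.86-fold, edgeR adjusted p = 5.72e-07). Tnrc6a went with a 2.14-fold higher level in Ctrl cells (edgeR adjusted p = 0.000187). In Trim71-/- cells the difference was -0.27 (95% interval -0.82 to 0.29, edgeR adjusted p = 0.368), and without Tnrc6a Trim71-/- replicate 3 it was -0.54 (edgeR adjusted p = 0.00977).

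Cubilin fell more steeply than its partner. Per length, Cubn stood at 0.491 ± 0.0381 of Lrp2 in Cas9 Ctrl and at 0.0864 ± 0.0577 in Cas9 Trim71-/- (SD, n = 3). In Tnrc6a cells the ratio was 0.627 ± 0.024 in Ctrl and 0.0495 ± 0.0236 in Trim71-/- (SD, n = 3). The highest Trim71-/- library had 0.153 and the lowest Ctrl library 0.448. Annotated exons of Cubn share 368 bases and those of Dab2 share 211 bases with genes on the opposite strand that the table does not list. Whether the counting used strand is not given in the labels.

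**Figure D4:**
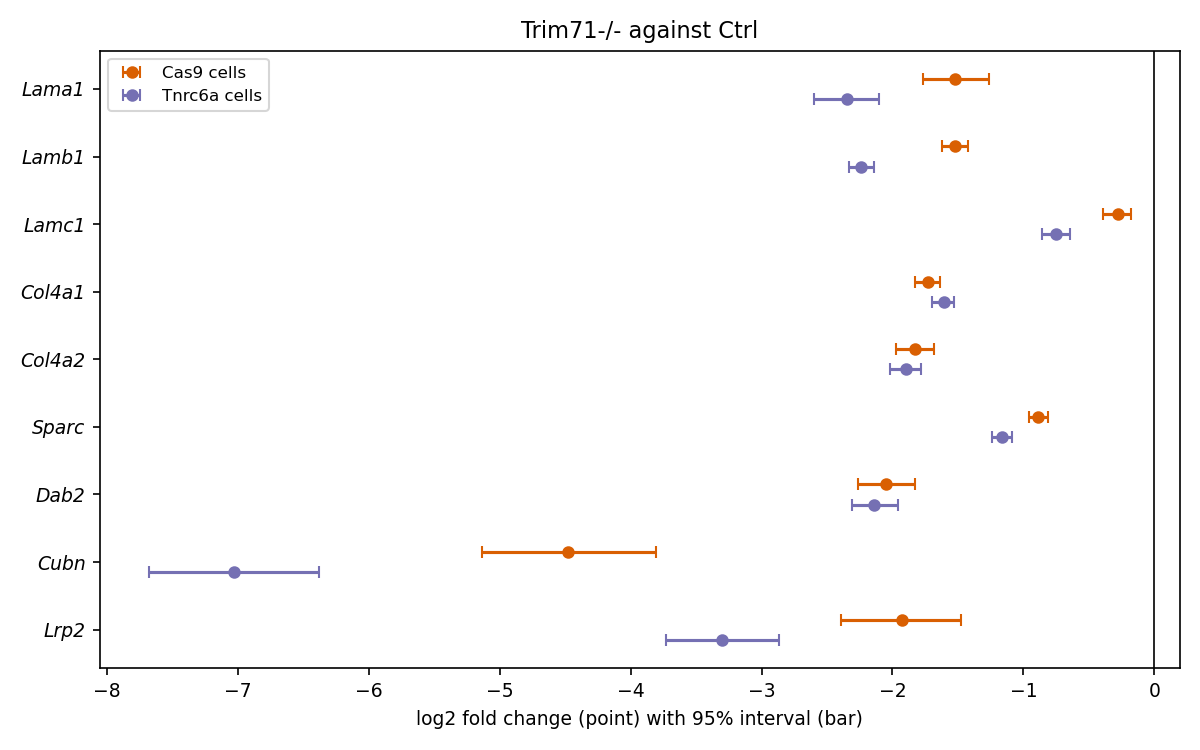
The horizontal axis is the log2 fold change of Trim71-/- against Ctrl for each of the 9 genes (vertical axis), with Cas9 cells in orange and Tnrc6a cells in purple. Points are estimates over 3 libraries against 3, and bars are 95% intervals. All 18 intervals lie below 0, from Lamc1 in Cas9 cells (-0.28) to Cubn in Tnrc6a cells (-7.03). The bars of Cubn are likely too narrow.

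The stretches upstream of the start sites of the endocytic genes are printed because Cubn and Lrp2 had the steepest drops in Tnrc6a cells, and these 2 and Dab2 in Cas9 cells, and because GATA factors, which bind GATA words, are known regulators of endoderm genes. They are from RefSeq promoter windows (GRCm38.p6), exonic bases left out, read on the gene's strand, with a GATA word in capitals:
Dab2 chr15:6299539-6299787, plus strand: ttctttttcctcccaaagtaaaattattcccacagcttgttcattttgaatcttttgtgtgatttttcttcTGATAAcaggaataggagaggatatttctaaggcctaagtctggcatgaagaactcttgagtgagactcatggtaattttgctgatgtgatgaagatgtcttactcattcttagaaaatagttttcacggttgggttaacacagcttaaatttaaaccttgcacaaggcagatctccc
Cubn chr2:13491877-13492126, minus strand: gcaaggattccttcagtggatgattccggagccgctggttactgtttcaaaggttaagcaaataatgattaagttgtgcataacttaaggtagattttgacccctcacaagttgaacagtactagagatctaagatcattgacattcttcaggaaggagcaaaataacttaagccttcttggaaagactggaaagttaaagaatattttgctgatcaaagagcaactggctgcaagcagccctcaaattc
Lrp2 chr2:69586066-69586279, minus strand: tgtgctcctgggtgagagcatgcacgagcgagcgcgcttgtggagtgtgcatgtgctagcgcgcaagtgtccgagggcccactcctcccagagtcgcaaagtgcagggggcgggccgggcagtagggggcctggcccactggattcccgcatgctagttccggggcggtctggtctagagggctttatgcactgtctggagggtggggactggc
Searched on both strands were the word AGATAA, the word AGATAG, the word TGATAA and the word TGATAG, over windows from 250 bases before to 50 after a start, and 29.8% of 32851 windows held at least 1. The Dab2 window held 2, a count reached by 7.77% of windows: TGATAA at 179 bases before the start, shown above, and the reverse complement of AGATAA at 14 bases after it. The windows of Cubn, Lrp2, Lamb1, Sparc, Col4a1, Col4a2 and a second Dab2 start held none. Lama1 and Lamc1 had no window in the source used and were not searched. The SOX word ATTGT, on both strands, was in none of the 8 windows and in 31.0% of all. The Cubn window has a GC content of 44.3% and the Dab2 window of 37.7%, while those of Lrp2, Col4a1 and Col4a2 have 65.0%, 74.0% and 73.7%. A match is only a match of letters, and binding was not measured here.

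Partners of cubilin and megalin were examined as a list of 10 genes. In Trim71-/- 2 were called higher and 6 lower in Cas9 cells, where 17.1% and 19.1% of all tested genes were. In Tnrc6a cells 1 was called higher and 5 lower, against 20.0% and 19.0%. Amn (amnionless), which carries cubilin to the cell surface, was at 2.07, 3.74 and 1.28 CPM in Cas9 Ctrl and at 0.637, 0.786 and 0.830 in Cas9 Trim71-/-. It was at 5.18, 5.36 and 3.55 CPM in Tnrc6a Ctrl and at 2.99, 2.65 and 2.21 in Tnrc6a Trim71-/-. Amn fell by 1.62 and 0.84 in Trim71-/- (edgeR adjusted p = 0.000412 and 0.00595). Lrpap1 (RAP), the chaperone of the megalin family, fell by 1.03 and 1.37, from 158 ± 5.88 to 77.2 ± 2.17 CPM in Cas9 cells and from 244 ± 7.23 to 94.1 ± 2.78 in Tnrc6a cells (SD, n = 3). Gipc1, a cytoplasmic partner of megalin that lies on chromosome 8, rose by 0.60 and 0.71.

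Neither the wider receptor family nor the clathrin machinery moved in 1 direction. Of 12 other receptors of the family to which megalin belongs, 3 were called higher and 3 lower in Trim71-/- in Cas9 cells, and 4 and 3 in Tnrc6a cells. Lrp1b fell by 2.11 and 1.12 from a low level (1.32 ± 0.0543 CPM in Cas9 Ctrl, SD, n = 3), and Sorl1 rose by 0.77 and 0.78. Of 21 genes of the clathrin coat and its adaptors, 2 were higher and 7 lower in Cas9 cells and 5 and 10 in Tnrc6a cells, with medians of -0.08 and -0.11. For both lists, the shares of all tested genes called higher and lower were 17.1% and 19.1% in Cas9 cells. They were 20.0% and 19.0% in Tnrc6a cells. Dab1, the paralog of Dab2, was at 19.1 ± 1.82 CPM in Cas9 Ctrl and 21.9 ± 1.62 in Cas9 Trim71-/- (SD, n = 3). With Tnrc6a it was lower (log2 -1.28 in Ctrl cells), where Dab2 was higher.

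Whether the Trim71-/- difference itself differed between the cell types was tested as an interaction, the log2 fold change in Tnrc6a cells minus that in Cas9 cells. Of the 9 genes, 5 were called lower (a steeper drop with Tnrc6a) and none higher, where 2.25% of all tested genes were called lower and 4.68% higher, and the median of the 9 was -0.47 beside 0.02. The difference was -0.84 for Lama1 (SE 0.15, edgeR adjusted p = 0.0128), -0.71 for Lamb1 (SE 0.07, edgeR adjusted p = 2.33e-10) and -0.47 for Lamc1 (SE 0.07, edgeR adjusted p = 0.00021). It was -0.28 for Sparc (SE 0.05, edgeR adjusted p = 0.00054) and -1.37 for Lrp2 (SE 0.29, edgeR adjusted p = 0.0241).

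Lrp2 missed the threshold when any of 6 libraries was left out, with an edgeR adjusted p of 0.0555 or 0.0516 without Cas9 Ctrl replicate 1 or 2. Without Cas9 Trim71-/- replicate 1, 2 or 3 it was 0.0648, 0.0559 or 0.0683, and without Tnrc6a Trim71-/- replicate 1 it was 0.0705. Cubn had the largest difference, -2.56 (SE 0.70), and lay at the threshold (edgeR adjusted p = 0.0502). It was called with RLE factors in edgeR (adjusted p = 0.0498), in DESeq2 (adjusted p = 7.1e-05), and in edgeR without Cas9 Ctrl replicate 1 (-2.44, adjusted p = 0.0348), Tnrc6a Ctrl replicate 2 (-2.72, adjusted p = 0.00113) or Tnrc6a Ctrl replicate 3 (-2.40, adjusted p = 0.000387). Without Cas9 Trim71-/- replicate 2 the difference was -1.95. Of all interaction calls, 67.5% were higher, against 55.6% with RLE factors and 55.4% in DESeq2.

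For Col4a1, Col4a2 and Dab2 the drop in Trim71-/- was close in both cell types. The interaction was 0.12 for Col4a1 (95% interval -0.01 to 0.25), -0.08 for Col4a2 (-0.27 to 0.11) and -0.09 for Dab2 (-0.38 to 0.20), none called. The same numbers can be read along the other axis: Col4a1, Col4a2 and Dab2 were higher with Tnrc6a by similar factors in both genotypes, whereas Lama1, Cubn and Lrp2 were higher with Tnrc6a in Ctrl and at levels that overlapped in Trim71-/-. The genes were sorted in this way after their values were seen.

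**Figure D5:**
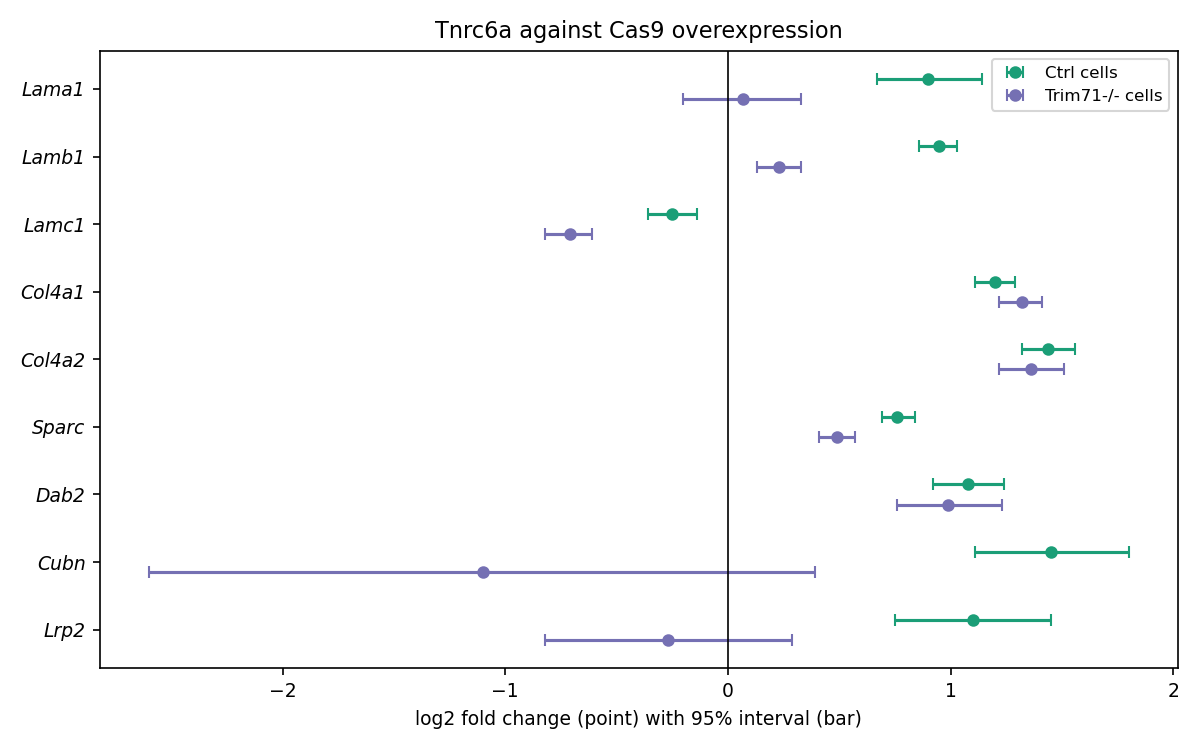
The horizontal axis is the log2 fold change of Tnrc6a against Cas9 overexpression for each of the 9 genes (vertical axis), with Ctrl cells in green and Trim71-/- cells in purple. Points are estimates over 3 libraries against 3, and bars are 95% intervals. The intervals of Lama1, Cubn and Lrp2 in Trim71-/- cells include 0, and those of Col4a1, Col4a2 and Dab2 lie above 0 in both genotypes.

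Levels between genes were compared per length, in RPKM. Sparc was highest in 3 groups (93.6 ± 3.84 RPKM in Cas9 Ctrl, 159 ± 8.91 in Tnrc6a Ctrl and 71 ± 1.06 in Tnrc6a Trim71-/-, SD, n = 3) and Lamc1 in Cas9 Trim71-/- (64.7 ± 1.53, SD, n = 3). In Cas9 Ctrl the order was Sparc, Lamc1, Col4a1, Lama1, Lamb1, Col4a2, Dab2, Lrp2 and Cubn, and of these neighbours only Lamb1 and Col4a2 overlapped. In Cas9 Trim71-/- Lamc1 came before Sparc, the rest of the order was as in Cas9 Ctrl, and Dab2 and Lrp2 overlapped. In Tnrc6a Ctrl Col4a2 came before Lamb1, and Lama1 overlapped with Col4a2 and Dab2 with Lrp2. In Tnrc6a Trim71-/- Col4a2 came before Lama1 and Lamb1, and no neighbours overlapped.

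Cubn was lowest in all 4 groups, at 0.894 ± 0.127 RPKM in Cas9 Ctrl and 0.0182 ± 0.0073 in Tnrc6a Trim71-/- (SD, n = 3). The step from Lrp2 down to Cubn was 2.03-fold in Cas9 Ctrl and 21.8-fold in Tnrc6a Trim71-/-. Summed over the 9 genes, RPKM was 232 to 244 in Cas9 Ctrl, 135 to 137 in Cas9 Trim71-/-, 358 to 382 in Tnrc6a Ctrl and 144 to 152 in Tnrc6a Trim71-/-. Lamc1 made up 16.7% to 19.3% of that sum in Tnrc6a Ctrl and 47.2% to 48.4% in Cas9 Trim71-/-.

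Most regulators of primitive endoderm moved in the same directions as these genes. Of 9 regulators tested, 7 were called lower and 1 higher in Trim71-/- in Cas9 cells, against 19.1% and 17.1% of all genes. In Tnrc6a cells 8 were called lower and none higher, against 19.0% and 20.0%. With Tnrc6a 9 of 9 were called higher in Ctrl cells, against 30.4% of all genes. In Trim71-/- cells 7 were called higher and 1 lower with Tnrc6a, against 32.0% and 30.9%. In the interaction 1 was called higher (Gata6, 1.14, edgeR adjusted p = 0.000106) and 1 lower (Sox7, -1.29, edgeR adjusted p = 0.000172), against 4.68% and 2.25%. Gata4, an activator of endoderm genes, was at 21.0, 22.4 and 20.3 CPM in Cas9 Ctrl and at 1.88, 2.36 and 2.21 in Cas9 Trim71-/- (log2 -3.31). It was at 50.0, 49.2 and 44.7 CPM in Tnrc6a Ctrl and at 5.81, 6.30 and 7.61 in Tnrc6a Trim71-/- (log2 -2.87). Sox17 fell by 2.96 and 3.42, and Gata6 had log2 fold changes of -3.93 and -2.79. Summed over the list, CPM was 61.5 to 65.7 in Cas9 Ctrl, 13.6 to 14.4 in Cas9 Trim71-/-, 135 to 146 in Tnrc6a Ctrl and 23.1 to 26.9 in Tnrc6a Trim71-/-. The part of endoderm cells in the results above was not tested.

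Markers of the later endoderm lineages moved less evenly. Shares of all tested genes called higher and lower in Trim71-/- were 17.1% and 19.1% in Cas9 cells and 20.0% and 19.0% in Tnrc6a cells. With Tnrc6a they were 30.4% and 33.1% in Ctrl cells and 32.0% and 30.9% in Trim71-/- cells. Of 8 parietal endoderm markers, 4 were called lower and 1 higher in Trim71-/- in Cas9 cells and 6 lower and 1 higher in Tnrc6a cells. Their summed CPM was 41.5 to 44.3 in Cas9 Ctrl, 39.9 to 45.7 in Cas9 Trim71-/-, 229 to 268 in Tnrc6a Ctrl and 124 to 129 in Tnrc6a Trim71-/-, with 6 called higher and 1 lower with Tnrc6a in either genotype. Krt8 and Krt18, with means of 52.2 and 36.9 CPM over the 12 libraries, made up most of this sum. Krt8 was the 1 marker called higher in Cas9 Trim71-/- (log2 0.42), where Krt18 was called lower (-0.33). Pth1r had log2 fold changes in Trim71-/- of -1.64 in Cas9 and -2.32 in Tnrc6a cells, and Stra6 of -2.27 and -3.60. Of 14 visceral endoderm markers, Afp, Ttr, Apoa1, Apoa4, Cer1 and Fgb are not listed in the table, whose lowest gene holds 46 counts over the 12 libraries. The other 8 summed to 20.4 to 31.0 CPM over all libraries, with 2 called higher and 2 lower with Tnrc6a in Ctrl cells, and 2 were called lower in Trim71-/- in Cas9 cells, while 2 were higher and 3 lower in Tnrc6a cells.

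Other cell types were checked in the same way. For these counts, 17.1% of all tested genes were called higher and 19.1% lower in Trim71-/- in Cas9 cells. In Tnrc6a cells the shares were 20.0% and 19.0%. With Tnrc6a they were 30.4% and 33.1% in Ctrl cells and 32.0% and 30.9% in Trim71-/- cells. Pluripotency markers summed to 6000 to 6040 CPM in Cas9 Ctrl, 6980 to 7090 in Cas9 Trim71-/-, 3760 to 3790 in Tnrc6a Ctrl and 5450 to 5540 in Tnrc6a Trim71-/-. In Trim71-/-, 6 of 9 were called higher and 2 lower in Cas9 cells, and 7 higher and 2 lower in Tnrc6a cells, with Dppa5a lower in both (log2 -0.84 and -0.78). Zfp42, at a mean of 796 CPM, rose by 0.84 and 1.21. It lies on chromosome 8, whose medians were 0.49 and 0.52. With Tnrc6a, 9 of 9 were called lower in Ctrl cells and 7 in Trim71-/- cells. Of 7 trophoblast markers, 3 were called lower in Trim71-/- in Cas9 cells, and 6 lower and 1 higher in Tnrc6a cells. With Tnrc6a, 6 of them were called higher in Ctrl and 4 in Trim71-/- cells and none lower, and Hand1 (log2 4.09) and Krt7 (3.91) rose most in Ctrl. Trophoblast markers summed to 33.6 to 37.5 CPM in Cas9 Ctrl, 27.6 to 30.2 in Cas9 Trim71-/-, 64.4 to 66.3 in Tnrc6a Ctrl and 46.5 to 48.0 in Tnrc6a Trim71-/-, so their sum was highest in the group where 8 of the 9 genes were highest. Of 8 fibroblast markers, Col3a1, Postn, Dcn and Lum are not listed, and the other 4 summed to 14.7 to 20.0 CPM in the Cas9 libraries and to 26.0 to 30.4 in the Tnrc6a libraries. With Tnrc6a, 3 of these 4 were called higher in Ctrl cells and 4 in Trim71-/- cells. Endothelium markers (5 of 7 listed) summed to 16.1 to 19.7 CPM in the Cas9 libraries and 20.0 to 28.5 in the Tnrc6a libraries, with 2 called higher and 2 lower in Trim71-/- in either cell type and 2 higher with Tnrc6a in either genotype, against 1 lower in Ctrl and none in Trim71-/- cells. Their part in the results was not tested.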

How the data were processed

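Stranded TruSeq total RNA libraries were sequenced from 12 samples, and groups were taken from the titles. The submitters' processing notes name bcl2fastq 2.20, STAR 2.7.3a and the mouse builds GRCm38 and mm10. As deposited by the authors, the table holds raw counts for each gene in each library, not normalized, per the file headers. The authors also deposited RPKM values beside a gene length in bases, per the file headers, and within a library these equal the counts over that length and over a fixed library size (0.935 to 1.08 of the summed counts). How reads were assigned to genes, with which annotation and whether by strand, is not given in the sources used here, which touches genes that share exon bases with another gene.

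The counts were analysed in R 4.3.3. Low genes were removed with filterByExpr (20486 of 20529 genes remained), libraries were scaled with TMM factors, and edgeR 4.0.16 (glmQLFit with robust estimation, glmQLFTest) was fitted with 1 mean per group over all 12 libraries. There were 5 comparisons: Trim71-/- against Ctrl in Cas9 and in Tnrc6a cells, Tnrc6a against Cas9 within each genotype, and the interaction. All tests were two-sided, with Benjamini-Hochberg adjustment over all tested genes and a threshold of 0.05. An SE is the absolute log2 fold change over the square root of the F statistic of edgeR's test. It can be too small for a steep drop to few counts, as for Cubn in Trim71-/- against Ctrl. The 95% intervals are from this SE and the t distribution with the total degrees of freedom of each gene's fit. These add edgeR's prior degrees of freedom to the residual ones, and were 8.6 to 42.0 for the 9 genes. Deposited RPKM served for levels between genes and for ratios within a library. Each library was counted as its own sample. Replicates of a group differed by more than counting noise, which does not show whether they are independent cultures. The fit was tested on simulated data with known changes.

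The 9 genes, the gene lists and the tests were chosen with earlier results of these data known. Named genes were the 9, and in each list and comparison up to 4 of the largest changes among those with an adjusted p under 0.05 and a mean of at least 1 CPM. The other laminin and collagen IV chains, Amn, Lrpap1, Serpinh1, Nid1, Hspg2, Gata4, Gata6 and Sox17 were eligible at any value. Genes of like pattern were the 5 with the highest Pearson r of log2 CPM (prior count 2) among those of at least 5 CPM. The 9 genes and genes with placeholder names (Gm, Rik, AC, AL and BC) were skipped in this ranking. A gene so named is given for the other comparisons too, and which of the eligible genes are described was decided with their values in view. The results of some single genes in the lists are not reported here. Coordinates are from GENCODE M21 (GRCm38), and promoter and microRNA sequences are from RefSeq.

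Alternatives were RLE and upper-quartile factors, no filter, a filter of at least 1 CPM in 6 libraries, limma-voom (limma 3.58.1), DESeq2 1.42.0, a 2-fold minimum (glmTreat), the replicate number as a block, only the compared groups in the fit, chromosome 8 genes scaled among themselves, RPKM recomputed with TMM factors, and each library left out in turn. Depth sets the precision: members with few counts, Cubn above all, have the widest intervals.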

Additional observations from a re-analysis of the deposited data

Results flagged for a closer look

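For 5 of the 9 genes the drop in Trim71-/- differed between Tnrc6a and Cas9 cells by a test of the difference itself, edgeR's interaction term over 12 libraries. The log2 fold change was lower in Tnrc6a cells by the following amounts. Lama1 differed by -0.84 (edgeR adjusted p = 0.0128) and Lamb1 by -0.71 (edgeR adjusted p = 2.33e-10), and both laminin chains were also higher with Tnrc6a in Ctrl cells. Lamc1 differed by -0.47 (edgeR adjusted p = 0.00021), although its level was lower with Tnrc6a in both genotypes. The value was -0.28 for the collagen-binding Sparc (edgeR adjusted p = 0.00054) and -1.37 for the megalin gene Lrp2 (edgeR adjusted p = 0.0241), whose call was lost without any 1 of 6 libraries. Why these genes differed was not tested.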

How the results depend on the processing

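Of 764 values of the 9 genes under the alternatives, 729 kept their side of the threshold, 24 lost and 11 gained a call, and 0 called values reversed. A value called in neither fit counted as kept even where its sign changed. For example, Lama1 with Tnrc6a in Trim71-/- cells went from 0.07 to -0.05 without Tnrc6a Trim71-/- replicate 3. With a 2-fold minimum (edgeR's glmTreat), 7 of the 9 genes were called in Trim71-/- in Cas9 cells and 8 in Tnrc6a cells, among 217 and 298 genes in all. Under it 3 were called with Tnrc6a in Ctrl cells (of 1401 genes), 2 in Trim71-/- cells (of 1312) and 0 in the interaction (of 8), and the higher bar itself sets these counts. Besides the calls given above, Cubn was called in the interaction with the stricter filter (adjusted p = 0.039) and with Tnrc6a in Trim71-/- cells in DESeq2 (-1.12, adjusted p = 0.027). The cause was not tested. Cubn had no value in the fit on the Trim71-/- groups alone, where it did not pass the filter. Recomputed RPKM differed from the deposited values by at most 0.133%.

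With a library left out, the genes called of the 9 were 9 to 9 in both Trim71-/- comparisons and with Tnrc6a in Ctrl cells, 6 to 7 in Trim71-/- cells and 4 to 6 in the interaction. Among all genes, calls ranged from 6417 to 7000 and from 6955 to 7110 in the Trim71-/- comparisons in Cas9 and Tnrc6a cells. They ranged from 12094 to 12430 and from 12098 to 12348 for Tnrc6a in Ctrl and Trim71-/- cells, and from 1059 to 1403 in the interaction.

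Libraries share only a replicate number: correlations of the deviations of same-numbered libraries lay between -0.232 and 0.145. With the replicate block, 9, 9, 9, 8 and 6 of the 9 genes were called, against 9, 9, 9, 6 and 5 without the block, in the order of the comparisons above. Calls over all genes were 7266, 7851, 12901, 12789 and 1335 with the block. The block added Cubn (-1.12, edgeR adjusted p = 0.0452) and Lrp2 (-0.28, edgeR adjusted p = 0.0429) with Tnrc6a in Trim71-/- cells, and Cubn in the interaction (-2.57, edgeR adjusted p = 0.0013).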

Other observations

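Genes outside the 9 whose levels followed theirs most closely were ranked by the Pearson r of log2 CPM over the 12 libraries. Genes with placeholder names were left out of the ranking. These libraries fall into 4 groups of 3 that differ in many genes, so a high r describes the order of 4 groups and carries no p. For Lama1 the closest were Ncoa3 (r = 0.99), Atg2a and Csrnp1 (both 0.987), Lrpap1 (0.984), the chaperone of the megalin family, and Slc5a6 (0.982). The closest to Dab2 were Ccnf (r = 0.997), Gata4 (0.994) and Pdgfra (0.992), the latter a receptor that marks primitive endoderm, then Calcoco2 (0.989) and Nup62cl (0.988). Calcoco2 (r = 0.995) and Ccnf (0.986) also stood among the closest to Sparc, with Bnip3 and F3 (both 0.99) and Gcnt1 (0.987). Cubn was followed by Utp14b and Adamts9 (both r = 0.989), Rimklb (0.98), Podxl (0.979) and Cnp (0.976).

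Among the 9 genes themselves, Lama1 was closest to Lamb1 (r = 0.994) and Lrp2 (0.99), and Sparc to Dab2 (0.988) and Col4a2 (0.985). Lamc1 had lower values, with r = 0.697 to Cubn, 0.572 to Lama1, 0.343 to Dab2 and 0.278 to Sparc.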
